A study of Rattus norvegicus with 2 samples.

Results

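The genes described here encode enzymes that remove superoxide or peroxides and 2 of their partners in redox metabolism: superoxide dismutases (Sod1, Sod2, Sod3), catalase (Cat), glutathione peroxidases (Gpx1, Gpx3, Gpx4), peroxiredoxin 1 (Prdx1), thioredoxin (Txn1) and the quinone reductase Nqo1. They were chosen by gene symbol, as all probe sets that the platform annotation assigns to 1 of these 10 symbols alone. This gave 18 of 8740 non-control probe sets and 9 of 4737 named genes. No probe set carried Txn1 as its single symbol, and 1 probe set that lists Gpx4 among several genes was left out.

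RNA came from first and second order branches of the small mesenteric artery, the muscular vessels that feed the gut. The sham pool combined total RNA of 20 sham-operated control rats, and the portal hypertensive pool that of 20 rats whose portal vein had been partly ligated before the liver. Both were hybridised to Affymetrix RG_U34A chips, 1 per pool, so no replicate or p-value exists and precision is limited by this number of arrays. The labels do not give strain, sex, age or time after surgery. The pools hide all differences between rats, and in whole arteries fewer cells of a type and less RNA per cell cannot be told apart.

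Superoxide is made by mitochondria, NADPH oxidases and other oxidases, and in vessels it reacts with nitric oxide and so shortens the life of that relaxing signal. Superoxide dismutases turn superoxide into hydrogen peroxide, SOD1 mainly in the cytosol, SOD2 in mitochondria and SOD3 outside the cell, bound to matrix, where the artery wall is a known site of it. Catalase in peroxisomes, glutathione peroxidases and peroxiredoxins then reduce the peroxide. GPX3 is the secreted, plasma form of glutathione peroxidase.

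On the scale of the deposited signals, none of the 9 enzymes differed by 1.5-fold between the pools. Spike-in controls averaged a log2 ratio of 0.28, and the signals were not scaled to them. Gpx3, the secreted glutathione peroxidase, had the lowest ratio, at 0.743 times its sham signal, and Nqo1 the highest, at 1.23 times. On the same scale, Gpx1, Gpx3, Gpx4 and catalase were lower in the portal hypertensive pool. Sod2, Prdx1 and Nqo1 were higher, and Sod1 and Sod3 were slightly lower. The ratios of Gpx3 and Nqo1 exceeded the SD between probe sets of a gene in the brighter part of the arrays. So did those of 36.8% of all genes with a value, at any signal level.

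Ratios are log2 of the portal hypertensive over the sham signal, after signals under a floor of 330.9 intensity units were set to that floor. Of the 18 probe sets, 14 lay above the floor in both pools (here called measured) and 4 below it in both. Among the 14, 0 were at least 1.5-fold apart in either direction, where 8.49% of the 4960 measured probe sets of the arrays were. A ratio below 0 was found for 10 of the 14, against 53.1% of all measured probe sets. All 14 lay inside the central 80% of measured probe sets, which ran from -0.45 to 0.36. The SD over the 14 ratios was 0.21, and that over all measured probe sets 0.35. All measured probe sets include dimmer ones than the 14, so these comparisons are not matched for signal level.

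The only spread within these data is that between probe sets of the same gene. All 14 belonged to the brighter part of the arrays, with a mean signal above 1627, the median of measured probe sets. Among genes above that level the SD between probe sets of a gene was 0.26 (1069 probe sets of 464 genes), and over all levels it was 0.30. Of the 9 gene ratios, 2 were larger than 0.26 in size, those of Gpx3 and Nqo1, where 36.8% of the 3351 genes with a value were. That share covers genes of all signal levels, and the share among bright genes alone was not computed. Passing this SD is therefore not shown to set a gene apart on these arrays. The measured probe sets of Sod1, Sod2, Gpx1, Gpx4 and Nqo1 carry a name suffix that marks probes which may match several transcripts or relax a design rule, so signal of close relatives cannot be told apart there. The SD covers neither differences between rats nor those between hybridisations.

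**Figure D1:**
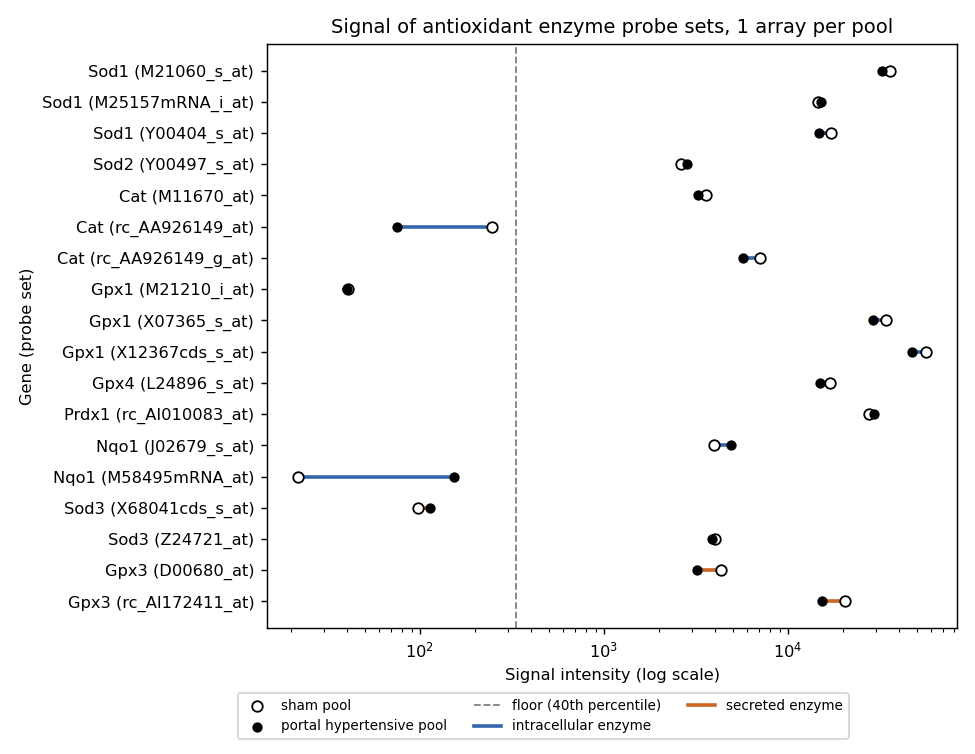
Signal intensity (horizontal, log scale) of the 18 probe sets in the sham pool (open circles) and the portal hypertensive pool (filled circles), 1 array each, with blue lines for intracellular and orange lines for secreted enzymes. The 4 probe sets left of the dashed floor of 330.9 had signals of at most 245.2, and the pairs of circles of the other 14 lie close together.

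The 300-base promoter windows of 3 genes are printed because they belong to the members with the extreme ratios (Gpx3 and Nqo1) and to the intracellular counterpart of Gpx3 (Gpx1). Each window runs from 250 bases before to 50 bases after the start site, in the RefSeq table of the rat assembly GRCr8, at chr10:39529085-39529384 (plus strand), chr8:117905212-117905511 (plus strand) and chr19:52220218-52220517 (minus strand). Capitals mark GC boxes, searched as GGGCGG on both strands, the letters to which SP1-type factors are known to bind.
Gpx3: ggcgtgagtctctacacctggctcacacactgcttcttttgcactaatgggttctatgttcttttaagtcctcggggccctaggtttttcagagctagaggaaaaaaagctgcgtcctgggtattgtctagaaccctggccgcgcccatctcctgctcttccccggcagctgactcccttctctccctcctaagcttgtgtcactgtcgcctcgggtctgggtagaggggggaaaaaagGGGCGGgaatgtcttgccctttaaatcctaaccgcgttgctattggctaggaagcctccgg
Gpx1: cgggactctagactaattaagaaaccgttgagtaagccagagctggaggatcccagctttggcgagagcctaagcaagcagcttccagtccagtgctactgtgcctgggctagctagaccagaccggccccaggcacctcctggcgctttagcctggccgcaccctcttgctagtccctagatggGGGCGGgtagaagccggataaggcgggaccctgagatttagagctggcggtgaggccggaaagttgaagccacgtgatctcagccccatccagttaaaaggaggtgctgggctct
Nqo1: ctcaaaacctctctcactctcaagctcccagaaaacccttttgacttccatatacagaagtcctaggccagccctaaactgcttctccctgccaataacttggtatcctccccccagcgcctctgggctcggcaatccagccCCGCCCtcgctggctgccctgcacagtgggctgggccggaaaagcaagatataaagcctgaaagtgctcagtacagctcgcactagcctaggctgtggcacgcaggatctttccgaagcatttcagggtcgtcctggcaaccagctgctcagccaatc

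The GC box was in the window of 8 of the 9 members with an entry (all but Cat, with Txn1 included and no entry for Sod3). Of all 33469 promoter windows 33.1% held it, and of the 2753 windows of genes measured on these arrays 61.2%. It began 11 bases before the start site in Gpx3, 65 before it in Gpx1 and 108 before it in Nqo1. The median GC content was 61.3% over the 11 member windows (Gpx4 has 3), 60.7% over the windows of measured genes and 51.7% over all windows, so the members resemble other measured genes in this respect.

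The core of the antioxidant response element, to which NRF2 is known to bind, was searched as TGACNNNGC on both strands and was in 2 member windows, those of Sod2 and Prdx1, against 12.1% of all windows and 15.5% of those of measured genes. They are the only member windows with these letters, and the matches are shown in capitals with 10 bases on each side, at chr1:50050185-50050213 (minus strand) and chr5:135383761-135383789 (plus strand). Both matches are on the strand opposite to the gene, so the capitals read as the reverse complement of the search letters. No such letters were in the window of Nqo1, the member with the highest ratio. The search reached only 250 bases before the start site, so it cannot show whether an element lies farther away. The E-box CACGTG was in the window of Gpx1 only among members, and in 6.42% of all windows. A match is a description of the letters and shows no binding.
Sod2: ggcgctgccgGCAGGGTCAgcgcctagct
Prdx1: cagggaaagcGCTGAGTCAtaccccgccg

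Sod1, the copper-zinc enzyme of the cytosol, was read by 3 probe sets that were bright in both pools. Their signals were 36071 in the sham and 32600.6 in the portal hypertensive pool, 17084 and 14770, and 14651.6 and 15058.8. The first 2 were lower in the portal hypertensive pool, with log2 ratios of -0.15 and -0.21, and the other was slightly higher, at 0.04. The gene ratio, the median over probe sets, was -0.15, within the scatter of 0.26, and the probe sets did not go the same way.

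Sod2, the manganese enzyme of mitochondria, was read by 1 probe set, at 2613.2 in the sham and 2831.3 in the portal hypertensive pool. This is a log2 ratio of 0.12, or 1.08 times the sham signal, again within the scatter.

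Sod3, the extracellular enzyme, had sham and portal hypertensive signals of 4016.2 and 3873.7 on 1 probe set, giving a ratio of -0.05 on the log2 scale. Its other probe set was below the floor, with 97.7 and 113.7. Sod3 was therefore nearly level between the pools, and the sign of its ratio turned to 0.02 under a lower floor, the 20th percentile, and to 0.07 without any floor. The 5 measured superoxide dismutase probe sets spanned log2 ratios from -0.21 to 0.12.

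Catalase, which splits hydrogen peroxide in peroxisomes, was lower on both measured probe sets. Signals were 3602.8 in the sham and 3255.8 in the portal hypertensive pool on one, and 7008.5 and 5729.7 on the other, with log2 ratios of -0.15 and -0.29. The remaining Cat probe set, designed on the same EST as the brighter one, gave 245.2 and 74.6, both below the floor. The gene ratio was -0.22, or 0.859 times the sham signal, within the scatter.

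Gpx1, the abundant glutathione peroxidase of cytosol and mitochondria, had high signals on 2 probe sets. They were 56297.1 in the sham and 47042.3 in the portal hypertensive pool on one probe set, and 34125.6 and 29106.1 on the other. The log2 ratios of -0.26 and -0.23 differed by only 0.03, and the gene ratio was -0.24. Another probe set, of the kind for which fewer probes met the design rules, read 40.4 and 40.1, far under the floor.

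Gpx4, which reduces lipid hydroperoxides in membranes, had signals of 16984 and 14839.3 on 1 probe set, a log2 ratio of -0.19. It lay on the same side of 0 as Gpx1 and Gpx3.

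Gpx3, secreted and best known from plasma, was lower on both probe sets by a like amount. The signal was 20355.9 in the sham and 15279.3 in the portal hypertensive pool on one, and 4350.6 and 3203.4 on the other. The log2 ratios were -0.41 and -0.44, so a bright and a dimmer probe set gave values 0.03 apart. The gene ratio of -0.43 exceeded the scatter of 0.26 and did not reach 1.5-fold. All 5 measured probe sets of Gpx1, Gpx3 and Gpx4 lay below 0, from -0.44 to -0.19. Gpx7, a glutathione peroxidase gene outside the members, went the other way, at 0.12.

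Prdx1, which reduces peroxide with electrons from thioredoxin, had signals of 27716.5 and 29358.4 on its only probe set, a log2 ratio of 0.08. Its sham and portal hypertensive signals were thus nearly the same.

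Nqo1, a flavoenzyme that reduces quinones with electrons from NADH or NADPH and a classical NRF2 target, had signals of 3960.6 in the sham and 4882.6 in the portal hypertensive pool. This is a log2 ratio of 0.30, the highest of the members and just beyond the scatter. Its other probe set read 21.8 and 153.1, below the floor in both pools, so it gives no ratio here. With the floor left out it entered the gene value and raised it to 1.23 on the log2(value + 16) scale, a value that rests on signals below the floor.

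In order of their ratios the genes ran from Gpx3 (-0.43) over Gpx1 (-0.24), Cat (-0.22), Gpx4 (-0.19), Sod1 (-0.15), Sod3 (-0.05), Prdx1 (0.08) and Sod2 (0.12) to Nqo1 (0.30). The widest gaps between neighbours were 0.19, from Sod2 to Nqo1, and 0.18, from Gpx3 to Gpx1. No pair of neighbours in this order differed beyond the scatter of 0.26. Sorting puts the closest values side by side, so this does not show that the genes are alike. The ends of the order, Gpx3 and Nqo1, were 0.73 apart. With 2 arrays no likeness of pattern between genes can be measured, and signals of different genes are not ranked because each probe set binds with its own strength.

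**Figure D2:**
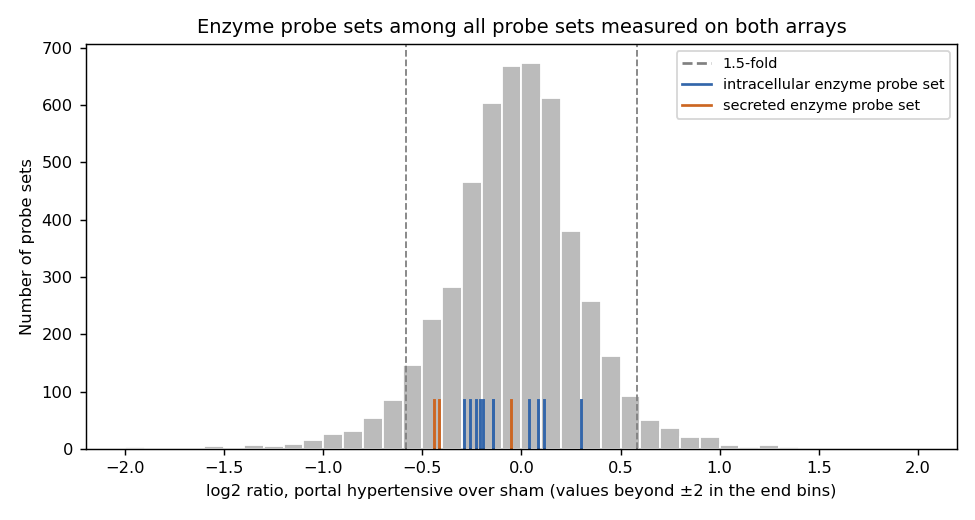
Number of measured probe sets (vertical) by log2 ratio of portal hypertensive over sham (horizontal, bins of 0.1) for all 4960, with short lines for the 14 enzyme probe sets, blue intracellular and orange secreted. All 14 lie between the dashed 1.5-fold lines, in the body of the distribution.

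Intracellular and secreted enzymes are given side by side, since 2 secreted genes are too few to describe a group. Over the 7 intracellular genes with a value the median log2 ratio was -0.15, with 4 below and 3 above 0 and a range from -0.24 to 0.30. For the secreted enzymes it was -0.24, from Gpx3 at -0.43 and Sod3 at -0.05, and over all 3351 genes with a value it was -0.02. The medians differed by 0.09. Gpx3 lay below all 7 intracellular genes, and Sod3 lay inside their range. In the isoenzyme pairs, Gpx3 was 0.18 below Gpx1, and Sod3 was 0.09 above Sod1. The ratios of all these genes lay below 0. Both differences were within the scatter of 0.26 between probe sets of a gene, so they show no contrast between the pairs. The sign of the Sod3 ratio also depended on the floor. 

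Other genes of peroxide and thiol metabolism were taken from 6 lists, in which 60 of 113 genes had a probe set and 45 a value. Of these 45, 4 were at least 1.5-fold higher, against 3.13% of all genes with a value, and 0 at least 1.5-fold lower, against 5.04%. Ratios above 0 were found for 22 of the 45, against 46.8% of all genes, and their median was -0.02, the same as over all genes. List medians moved with the processing by more than 1.5 times for every list, and their range over the alternatives is given beside each.

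Other peroxidases and peroxiredoxins held 7 genes with a value, 5 above and 2 below 0, with a median of 0.05 (0.02 to 0.12 over the alternatives). Mgst2, a microsomal glutathione transferase with peroxidase activity, had signals of 4275.8 and 6917, a log2 ratio of 0.69. Mgst1, its relative in the endoplasmic reticulum and mitochondria, had 27239.1 and 39593.1, a log2 ratio of 0.54, and Mgst3 had -0.18. Only Mgst2 of this list passed 1.5-fold. Of the peroxiredoxin genes, Prdx2 had 0.05 and Prdx3 0.01, while Prdx6, which also has phospholipase activity, had -0.19 with probe sets from -0.24 to 0.14. Gpx7, a further glutathione peroxidase gene, had signals of 6402.5 and 6947.9, a log2 ratio of 0.12, unlike Gpx1, Gpx3 and Gpx4. Gpx2, Gpx5 and Gpx6 were below the floor in both pools.

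The thioredoxin system, which feeds electrons to peroxiredoxins, had 5 genes with a value, all 5 below 0, with a median of -0.15 (-0.20 to -0.08) and none at 1.5-fold. Txnrd2, the mitochondrial thioredoxin reductase, had -0.24, Txnip, which binds and inhibits thioredoxin, -0.23, Txn2, mitochondrial thioredoxin, -0.15, and Txnrd1, the cytosolic reductase, -0.07. Each of these gene values lay within the scatter, 0.26 among brighter genes and 0.30 over all levels. The 2 probe sets of Txnrd2, both dim, gave -0.37 and -0.12, and those of Txnip gave -0.42 and -0.05.

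Of 6 genes of glutathione synthesis and reduction with a value, 5 were below 0 and 0 reached 1.5-fold. Their median was -0.08 (-0.08 to -0.0029), and it was nearest to 0 after quantile normalization. Gss, glutathione synthetase, gave 1705.6 and 1472.6, which is -0.21 on the log2 scale. Mat2a, which makes S-adenosylmethionine, had -0.20, Cbs, which starts the conversion of homocysteine to cysteine, -0.09, and Gsr, glutathione reductase, -0.08. Gclc, the catalytic subunit of the first step of glutathione synthesis, was below the floor in both pools.

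Among 5 metal-handling genes and selenoprotein genes with a value, 2 were above 0 and 3 below, with a median of -0.06 and none at 1.5-fold. Cp, the copper-carrying ferroxidase ceruloplasmin, had 0.46 over 3 probe sets, from 0.05 to 0.49. Selenow, a small selenoprotein, had signals of 2866.2 and 2339, a log2 ratio of -0.29. Selenop, the selenium carrier of plasma, had -0.09, and Sephs2, which makes the selenium donor, 0.10. The median of this list ran from -0.06 to 0.05 over the alternatives and was above 0 only when the floor was raised to the 60th percentile.

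Sources of superoxide and peroxide had 8 genes with a value, 5 above and 3 below 0, with none at 1.5-fold and a median of 0.12 (-0.01 to 0.18) that turned to -0.01 with only the probe set of highest level per gene and with shared probe sets left out. Por, which passes electrons from NADPH to cytochromes P450, had 0.58 from probe sets at 0.29 and 0.86, and Xdh, xanthine dehydrogenase, had signals of 5230.5 and 6798.4, a log2 ratio of 0.38. Uox, urate oxidase, had 1138.9 and 781.9 on its only measured probe set, a log2 ratio of -0.54. Its other probe sets, with 59.7 and 36.5 and with 49.1 and 43.9, were below the floor in both pools. Maoa, monoamine oxidase A, had -0.22. Nox4, the constitutively active NADPH oxidase of the vessel wall, was below the floor in both pools.

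The list of NRF2 regulators and target enzymes had 14 genes with a value, 9 above and 5 below 0. Their median was 0.06, and it lay between 0.07 and 0.21 under the alternatives, highest under a floor at the 60th percentile. The 3 genes past 1.5-fold were Me1, malic enzyme, at 0.89, Taldo1, transaldolase, at 0.77, and Tkt, transketolase, at 0.74. Me1 makes cytosolic NADPH, and the other two belong to the pentose phosphate pathway. Cbr1, carbonyl reductase, followed with 0.33. On the other side of 0 lay Hmox2, the constitutive heme oxygenase, at -0.31, Nfe2l2, which encodes NRF2 itself, at -0.30, and its partner Mafk at -0.18. The probe sets of Nfe2l2 gave -0.63 and 0.03 and those of Hmox2 -0.67 and 0.04, so neither gene went the same way on both.

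**Figure D3:**
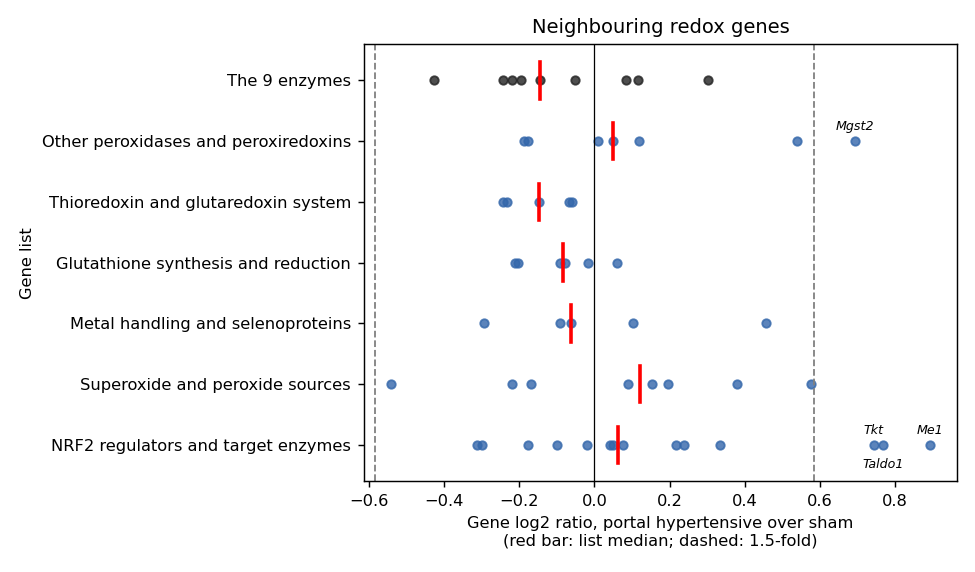
Gene log2 ratios of portal hypertensive over sham (horizontal) for the 9 enzymes and the 6 redox lists (vertical), a point per gene, with red bars for list medians and dashed lines at 1.5-fold. Mgst2, Me1, Taldo1 and Tkt are the genes past 1.5-fold, and the 9 enzymes lie between -0.43 and 0.30.

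Markers of smooth muscle were present, and single markers of the artery's own cells and of other cells differed between the pools. Sums of marker signal are compared only between the pools, list by list. All 7 smooth muscle markers on the array had a value, with a summed signal of 543343 in the sham and 520591 in the portal hypertensive pool. Their median log2 ratio was -0.10. Kcnmb1, a potassium channel subunit, had -0.68 from probe sets that differed widely, at -1.04 and -0.33. Of the endothelial markers, Vwf and Kdr were below the floor in both pools and 4 of 6 had a value, 3 of them below 0, with a median of -0.10 and sums of 8227 and 7883. The adhesion molecule gene Icam2 had -1.13 and the endothelin gene Edn1 0.62, both past 1.5-fold. Each rests on 1 dim probe set. Signals in the sham and portal hypertensive pool were 796.1 and 364.7 for Icam2, the latter near the floor, and 1011.1 and 1552.3 for Edn1. Adipocyte markers were above 0 for 7 of 8 genes, with a median of 0.32 and a summed signal of 108325 and 147875, and macrophage markers for 5 of 6, with a median of 0.45 and a sum of 51636 and 64238. Erythrocyte markers, of cells rich in SOD1, catalase and GPX1, summed to 315959 and 317088, with 2 of 5 above 0. Hbb had 0.18 and Hbb-b1 0.14, while Hba-a3 had -0.365, Alas2 -0.40 and Slc4a1 -0.05, so the level sum hides markers that went opposite ways. Hepatocyte markers, 5 of 8 with a value, summed to 3014 and 3209, pancreas markers, 2 of 9 with a value, to 3148 and 2852, and fibroblast markers were above 0 for 6 of 7 genes, with sums of 557292 and 605492. The part of these cells in the ratios of the enzymes and of Me1, Taldo1, Tkt and Mgst2 was not tested.

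**Figure D4:**
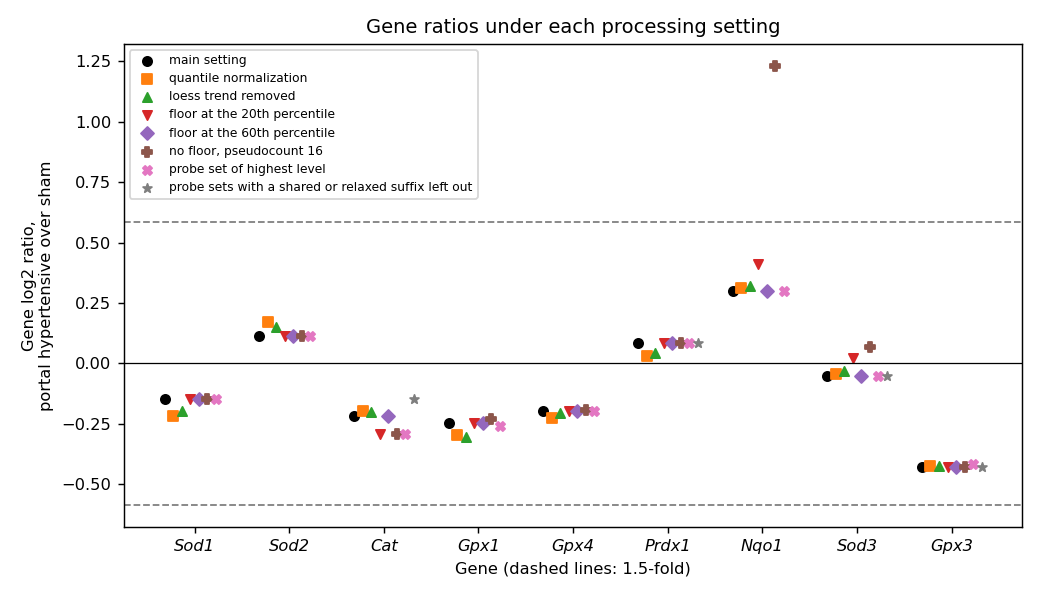
Gene log2 ratios of portal hypertensive over sham (vertical) for the 9 enzymes under the main setting (black) and each of 7 other processings (colours), with dashed lines at 1.5-fold. Gpx3 stays between -0.43 and -0.41, Sod3 lies on both sides of 0, and only Nqo1 without a floor, at 1.23, passes a dashed line.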

How the data were processed

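Signal of 8799 probe sets on 2 Affymetrix RG_U34A arrays was analysed, 1 array per pool of 20 rats. The authors deposited linear signal intensities, 1 per probe set and pool; no source used here names their software, background correction or scaling target. Means without the lowest and highest 2% of values were 2499.9 in both columns, so no further scaling was made. Per the file headers, the arrays differed in fluidics module and in the noted amount of labelled cRNA, which cannot be told apart from the group. Over 9 spike-in control probe sets the log2 ratio averaged 0.28 (SD 0.28, 8 above 0). This average was larger in size than every member gene ratio except those of Gpx3 and Nqo1. No setting scaled the arrays to the spike-ins. The signs and sizes of the ratios, and the counts at 1.5-fold, therefore hold on the scale of the deposited signals only.

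The floor was the 40th percentile of both arrays without 59 control probe sets. It is no detection call, and it holds low ratios near 0. A gene's value is the median log2 ratio over its probe sets above the floor on at least 1 array. Of the probe sets, 7018 had 1 symbol in the platform annotation, 308 several and 1473 none. No test was possible; 1.5-fold was used for counts. Named genes are all members and up to 4 measured genes per list with the largest absolute ratio. Other genes named beside them are Gpx2, Gpx5, Gpx6, Gpx7, Gclc, Nox4, Prdx2, Prdx3, Nfe2l2, Mafk and Hmox2. These and the markers Kcnmb1, Icam2, Edn1, Hbb, Hbb-b1, Hba-a3, Alas2 and Slc4a1 were added after their values were seen. Members and lists were chosen with earlier results of these data known. Scripts were tested on simulated data (Python 3.11.15, pandas 2.3.3, statsmodels 0.14.6). Alternatives were quantile normalization, a loess trend, floors at the 20th and 60th percentile, no floor, the brightest probe set, probe sets with a shared or relaxed suffix left out, and a 2-fold threshold.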

Additional observations from a re-analysis of the deposited data

How the results depend on the processing

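Of 128 comparisons of a result with an alternative setting, 125 moved by less than the 0.30 SD between probe sets of a gene, or gave the same count. The other 3 moved by more. The moves concern probe sets below the floor: 1 member probe set was at least 1.5-fold apart under a floor at the 20th percentile, and 2 without any floor (pseudocount 16), where the main count was 0, and the log2 ratio of Nqo1 was 1.23 with no floor. The difference of the intracellular from the secreted median was above 0 in each setting, from 0.03 to 0.21. The 0.21 came with shared and relaxed probe sets left out, where Cat and Prdx1 were the only intracellular genes left. The secreted median rests on Gpx3 and Sod3 alone. In the main setting Sod3, at -0.05, lay above the intracellular median of -0.15, so the sign of the difference came from Gpx3. Gpx3, Gpx1, Gpx4, Cat, Sod1, Sod2, Prdx1 and Nqo1 kept their sign in every alternative that gave them a value. Sod3 kept its sign in 5 of 7. Several settings could not change the member values. The ratios of Sod1, Sod2, Gpx4, Prdx1 and Gpx3 were identical under the main and both alternative floors. Sod2, Gpx4 and Prdx1 have 1 probe set each, so choosing the brightest changed nothing. The count of 125 includes such comparisons. It also includes changes of sign smaller than 0.30, as for Sod3 and for the median of the superoxide and peroxide sources. Reversals were counted only for values past 1.5-fold in the main setting. No main value was, so that count could not find any. Across the processings the median over all measured probe sets stayed near 0, from -0.03 to 0.004. The scale between the arrays was therefore not tested. With shared and relaxed probe sets left out, Sod1, Sod2, Gpx1, Gpx4 and Nqo1 had no value. No paired analysis was possible because each group has 1 array.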

Other observations

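The enzymes that carry selenocysteine were set apart after their values had been seen, so their list is a description without a test. Of 24 genes known to encode selenoproteins, 12 were on the array and 9 had a value, and 8 of these 9 lay below 0, with a median log2 ratio of -0.24 against -0.02 over all genes. For comparison, 53.1% of all measured probe sets lay below 0 and 46.8% of all genes with a value above 0, neither matched for signal level. The 9 included the member genes Gpx3, Gpx1 and Gpx4, whose ratios below 0 were known when the list was made. The median is the value of Gpx1 itself, so it does not add to what the members show. Of the 6 others, 5 were below 0: Dio3, the thyroid hormone deiodinase, at -0.59, Selenow at -0.29, Txnrd2 at -0.24, Selenop at -0.09 and Txnrd1 at -0.07, while Sephs2 had 0.10. Only Dio3 was at least 1.5-fold lower, as were 5.04% of all genes with a value. It rests on 1 probe set with signals of 1926.2 and 1276.9, and its other probe set was below the floor in both pools. With 1 array a pool the values cannot be set against a spread between animals.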
